A study of Rattus norvegicus with 6 samples.

Results

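The insulin-like growth factor (IGF) genes described here are the 2 ligands Igf1 and Igf2, the 2 receptors Igf1r and Igf2r, and the 6 binding proteins Igfbp1 to Igfbp6. They were found by their symbols in lists of genes that carried a peak of H3K27me3, the trimethylation of lysine 27 of histone H3. Each of the 10 symbols matched 1 entry, so they make up 10 of the 22427 genes listed in any library. The lists come from chromatin immunoprecipitation and sequencing of primary cardiomyocytes of newborn Sprague Dawley rats. Control cells were given PBS and treated cells 5 mM α-ketoglutarate (α-KG), in both cases for 24 h in culture medium with serum, and each group has 2 H3K27me3 libraries, numbered 1 and 2 as in the labels. An input sample of each group was not analysed here. A listing is the only value per gene. Peak strength, position and read depth are not given in the lists used here, so a gene absent from a list may lack the mark or lie below detection.

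IGF1 and IGF2 are secreted peptides related to insulin that drive growth of the fetus and of the heart through the receptor tyrosine kinase IGF1R, which signals through the PI3K-AKT and RAS-ERK cascades. IGF2R, which also carries mannose 6-phosphate-tagged enzymes, takes up IGF2 and sends it to lysosomes, and the binding proteins hold the ligands in blood and tissue and set how much reaches the receptors. H3K27me3 is laid down by Polycomb repressive complex 2, often at CpG-rich promoters of developmental genes, and is removed by demethylases that use α-KG as a cosubstrate. In mammals Igf2 and, in rodents, Igf2r are imprinted, so the parental copies differ in their chromatin.

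Of the 10 IGF genes, 9 were listed in all 4 libraries. The exception was Igfbp5 (ENSRNOG00000017206), which encodes a binding protein that associates with the extracellular matrix. Control 1 did not list it, whereas control 2, α-KG 1 and α-KG 2 did. None of the 10 had the pattern of the treatment, that is, a listing in both controls and neither α-KG library or the reverse. Over all listed genes, 62.8% were in all 4 libraries.

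The promoter of Igfbp5 is shown with that of Igfbp2, its next gene in the RefSeq order, which every library listed. Those of Igfbp3 and Igfbp6 show the richest and the poorest CpG content among the binding protein genes, and both of these were listed in all 4 libraries. Each sequence is the 250 bases before the annotated start, from RefSeq on assembly GRCr8, with CpG dinucleotides, the sites of DNA methylation, in capitals. The Igfbp5 stretch (GRCr8 chr9:81914188-81914437, minus strand) holds 8 CpGs and that of Igfbp2 (chr9:81864561-81864810, plus strand) 11. That of Igfbp3 (chr14:86277945-86278194, minus strand) holds 31 and that of Igfbp6 (chr7:135154669-135154918, plus strand) 5. The submitters' processing notes name build rn6, so these positions are not those of the peaks.
Igfbp5 promoter: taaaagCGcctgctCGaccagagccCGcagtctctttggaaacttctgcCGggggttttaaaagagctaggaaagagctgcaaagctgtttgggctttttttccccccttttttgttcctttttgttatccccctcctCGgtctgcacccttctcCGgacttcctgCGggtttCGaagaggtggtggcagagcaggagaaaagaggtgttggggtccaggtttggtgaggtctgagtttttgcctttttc
Igfbp2 promoter: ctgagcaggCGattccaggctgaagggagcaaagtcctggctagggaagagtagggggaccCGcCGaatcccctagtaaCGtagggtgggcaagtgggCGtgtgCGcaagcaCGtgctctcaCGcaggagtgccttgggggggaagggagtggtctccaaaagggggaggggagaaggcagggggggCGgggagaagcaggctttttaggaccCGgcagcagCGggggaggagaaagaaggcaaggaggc
Igfbp3 promoter: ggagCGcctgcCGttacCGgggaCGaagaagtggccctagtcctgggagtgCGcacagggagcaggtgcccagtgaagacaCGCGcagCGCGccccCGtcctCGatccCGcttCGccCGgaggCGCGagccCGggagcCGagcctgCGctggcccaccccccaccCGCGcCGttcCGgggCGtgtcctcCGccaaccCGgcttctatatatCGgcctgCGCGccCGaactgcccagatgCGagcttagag
Igfbp6 promoter: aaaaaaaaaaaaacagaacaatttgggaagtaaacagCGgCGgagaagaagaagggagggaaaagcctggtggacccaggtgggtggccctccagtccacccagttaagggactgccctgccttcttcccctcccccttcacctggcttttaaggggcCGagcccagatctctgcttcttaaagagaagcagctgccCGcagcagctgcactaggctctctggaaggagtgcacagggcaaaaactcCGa

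The lists differed in length, and this bears on every count below. Control 1 named 17245 genes, control 2 18442, α-KG 1 18120 and α-KG 2 19181, so the library that lacked Igfbp5 was the shortest. On average a control library named 17843.5 ± 846 genes and an α-KG library 18650.5 ± 750 (SD, n = 2 per group). The 807 genes between these means were fewer than the 1197 between the 2 controls or the 1061 between the 2 α-KG libraries (exact two-sided permutation test over libraries, p = 0.667, with 0.333 the smallest p that 2 against 2 libraries allow). The labels do not say that the replicates were separate cultures, so this p measures only the spread between these libraries, which may be technical.

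Among the ligands, Igf1 (ENSRNOG00000004517) and Igf2 (ENSRNOG00000020369) were each listed in both control libraries, 1 and 2, and in both α-KG libraries, 1 and 2. Igf1 encodes the growth factor that mediates much of the action of growth hormone, and Igf2 the main IGF of fetal life. Neither gene separated the groups at the level of a listing. Both receptor genes, Igf1r (ENSRNOG00000014187) and Igf2r (ENSRNOG00000014997), were likewise in all 4 lists.

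Binding protein genes gave the same picture with the 1 exception. Igfbp1, a binding protein made mainly by liver and controlled by insulin, Igfbp2, a major binding protein of fetal blood, and Igfbp3, the main carrier of IGFs in adult blood, were in all 4 libraries. So were Igfbp4, which inhibits IGF action until the protease PAPP-A cleaves it, and Igfbp6, which prefers IGF2 over IGF1. Counted by library, 9 of 10 IGF genes were in control 1 and 10 of 10 in each of control 2, α-KG 1 and α-KG 2. The background is high in each library, at 76.9% of all listed genes in control 1, 82.2% in control 2, 80.8% in α-KG 1 and 85.5% in α-KG 2. The mean number of IGF genes per library was thus 0.5 higher with α-KG, and that difference was 0 without control 1. No test was made on so short a list.

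**Figure D1:**
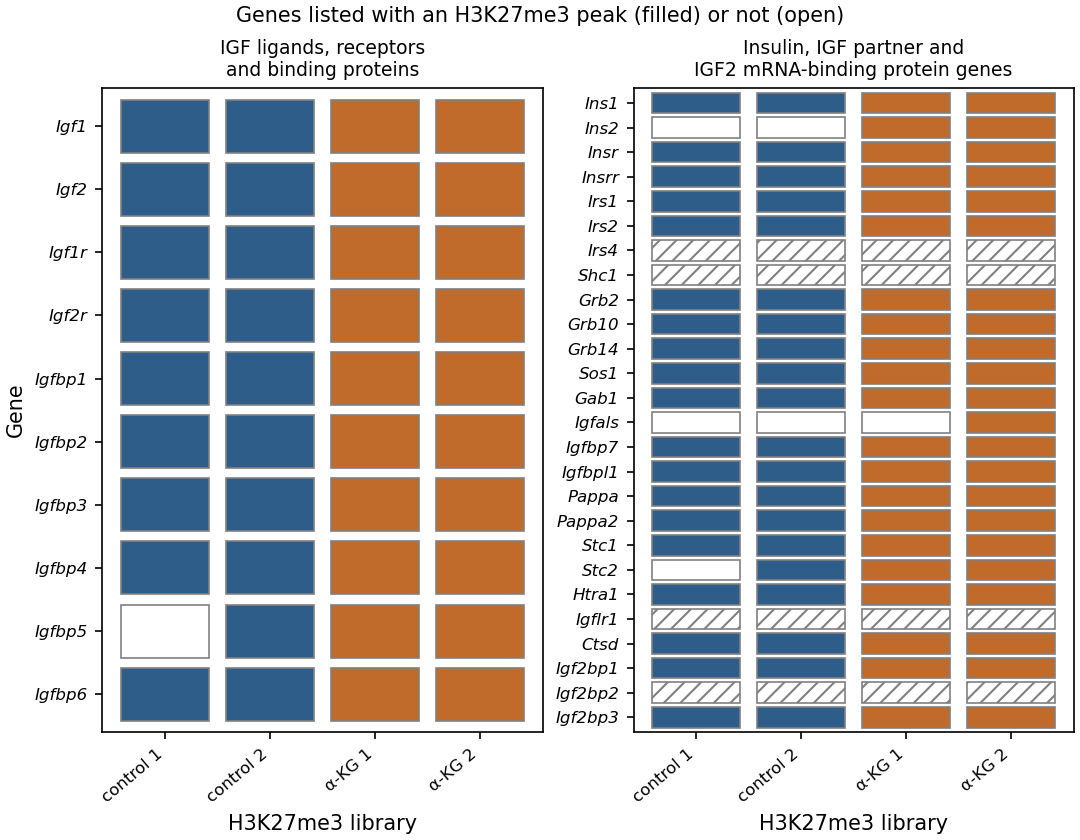
Listing of each gene (rows) in each of the 4 H3K27me3 libraries (columns); filled cells are listed (blue control, orange α-KG), open cells are not, and hatched rows have no entry in any library. The left panel shows Igfbp5 open in control 1 alone and the other 9 IGF genes filled throughout; the right panel shows Ins2 filled in both α-KG libraries alone.

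The listing of Igfbp5 was not a rare one. Absence from control 1 alone was the state of 1101 genes, or 4.91% of all listed genes, against 1.69% absent from control 2 alone, 2.49% from α-KG 1 alone and 3.8% from α-KG 2 alone. Among the genes of the IGF, insulin, downstream, imprinted, neuregulin and fibroblast growth factor (FGF) lists, 5 others had the same listing as Igfbp5 in all 4 libraries. They were Stc2, Mtor, Map2k2, Th and Fgf17. No IGF gene was lost, meaning listed in both controls and neither α-KG library, of the 9 that both controls listed, and the background of such loss was 3.22%. No IGF gene was gained, the reverse, of the 10 in both α-KG libraries, against a background of 4.48%. With so few members, 0 lies near either background and is not a result about these genes. If control 2 is left out, Igfbp5 counts as gained, so its state rests on that library.

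Most genes of insulin signalling were in every list. Of 13 genes on the list of insulin ligands, receptors and docking proteins, 11 had an entry. Of those 11, 10 were in all 4 libraries (90.9%), against 62.8% of all listed genes. These 10 included Ins1, 1 of the 2 rat insulin genes, the insulin receptor gene Insr, its relative Insrr, and the receptor substrates Irs1 and Irs2. The rest were Sos1 and the adaptors Grb2, Grb10, Grb14 and Gab1. Ins2 (ENSRNOG00000020405), the other insulin gene, was listed in α-KG 1 and α-KG 2 and in neither control, and it was the 1 gene on this list with that pattern, which 4.48% of all genes in both α-KG libraries had. The receptor substrate gene Irs4 and the adaptor gene Shc1 had no entry.

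A further list held genes of IGF-binding partners, proteases and related proteins. Of its 10 genes 9 had an entry and 7 of these were in all 4 libraries (77.8%), against 62.8% of all listed genes. Those 7 were Pappa and Pappa2, the proteases that cleave binding proteins, Stc1, a stanniocalcin gene, the serine protease gene Htra1, the lysosomal protease gene Ctsd, and the related binding protein genes Igfbp7 and Igfbpl1. Stc2, whose product inhibits PAPP-A, was in every library but control 1. Igfals, which encodes the acid-labile subunit of the circulating IGF complex, was in α-KG 2 alone, and Igflr1 had no entry. Of the genes for proteins that bind Igf2 mRNA, Igf2bp1 and Igf2bp3 were in all 4 libraries and Igf2bp2 had no entry.

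Downstream of the receptors, 18 of the 23 genes of the PI3K, AKT and mTOR branch were in all 4 libraries (78.3%). The 5 others were Pik3ca, a catalytic subunit of PI3K, in α-KG 1 alone, its regulatory partner Pik3r3 in control 2 and α-KG 2, and Tsc2, a brake on mTOR, in α-KG 2 alone. Mtor was in every library but control 1, and the transcription factor gene Foxo4 was in both α-KG lists and in no control list. In the RAS and ERK branch 6 of 9 genes were in all 4 libraries, while Nras and the kinase gene Map2k1 were in α-KG 2 alone and Map2k2 was absent from control 1 alone. Growth hormone genes had 5 of 8 in all 4, and both this share and that of the RAS and ERK branch are near the 62.8% of all listed genes. Gh1, growth hormone itself, was in control 2 and α-KG 1, Ghrh, its hypothalamic releasing hormone, was absent from α-KG 1 alone, and the receptor gene for that hormone, Ghrhr, was in both α-KG lists and in no control list, as was Foxo4, a state of 4.48% of all genes in both α-KG lists.

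Taking the 7 pathway and neighbour lists as 1 set of 78 genes, 73 had an entry. Of these, 57 (78.1%) were in all 4 libraries, against 62.8% of all listed genes. Control 1 listed 59 of the 73, control 2 65, α-KG 1 66 and α-KG 2 71, which is the order of the whole lists at both ends. Of the 59 genes in both controls 0 were lost (background 3.22%), and of the 64 in both α-KG lists 3 were gained (background 4.48%), namely Ins2, Foxo4 and Ghrhr, a number near that background. As other growth factor families, the neuregulin and ERBB genes had 7 of 8 in all 4 libraries, with Nrg4 absent from α-KG 2, and the FGF ligand and receptor genes had 23 of 24, with Fgf17 absent from control 1 and Fgf21 without an entry. The IGF genes, at 9 of 10, lie between these 2 families, and no test of these differences was made.

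**Figure D2:**
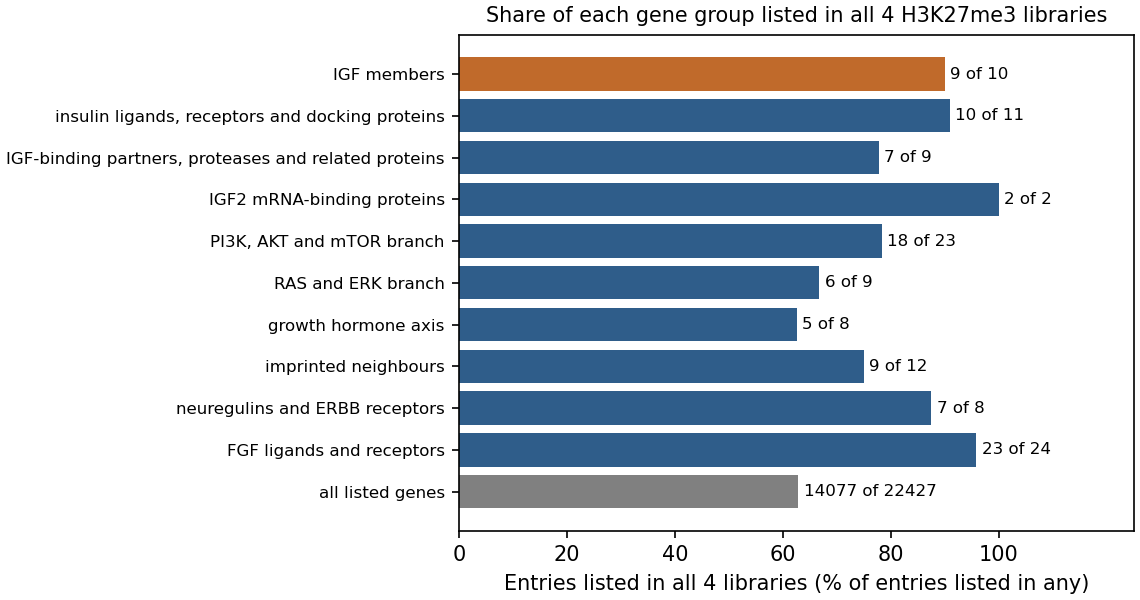
Share of entries listed in all 4 H3K27me3 libraries, as a percent of the entries listed in any, for the IGF genes (orange), the fixed gene lists (blue) and all listed genes (grey); the counts stand beside the bars. The IGF bar is 9 of 10 and that of all listed genes 62.8%.

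Gene order gave the listings of the genes beside each IGF gene. Without peak positions, these cannot show how far a peak extended. Neighbours were the 3 protein-coding genes on each side in the RefSeq order of GRCr8, which served for order alone, and neighbouring genes can share a peak. Around Igf2, the neighbouring ribosomal protein gene Mrpl23 was in all 4 libraries. On the other side Ins2 was in both α-KG libraries alone and Th, the tyrosine hydroxylase gene, was in every library but control 1. Tnnt3, a fast skeletal troponin gene, was in α-KG 2 alone, and Prr33 and LOC102548568 had no entry. Igf2 and its neighbour Mrpl23 thus had constant listings, while those of Ins2, Th and Tnnt3 varied between libraries.

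Near Igf2r, the receptor gene Mas1 and the organic cation transporter genes Slc22a2 and Slc22a3 were in all 4 libraries, Pnldc1 was in α-KG 2 alone and Mas1l had no entry. From the list of imprinted neighbours, 9 of 12 entries were in all 4 libraries (75.0%), against 62.8% of all listed genes. Besides Ins2 and Th, the exception was Slc22a18, absent from α-KG 1 alone, and H19, the noncoding RNA gene that shares the imprinting control of Igf2, had no entry.

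On one side of Igf1, Parpbp was in control 2 alone, Pmch, a neuropeptide precursor gene, in control 2 and α-KG 1, and Nup37, a nuclear pore gene, in α-KG 2 alone. Igfbp5 lay between Igfbp2 and Tnp1, a sperm chromatin gene, and both were in all 4 libraries, as was Tns1, a focal adhesion gene, beyond. The absence of Igfbp5 from control 1 was therefore not shared by the gene next to it on either side. Rufy4 was in both α-KG lists and in no control list, a state of 4.48% of all genes in both α-KG lists. Smarcal1 had no entry. The remaining neighbour, the ribosomal protein gene Rpl37a, had 2 entries, of which 1 was in all 4 libraries and 1 was absent from control 1, and the copies of such a gene can share reads. Counting each gene that neighbours any of the 10 IGF genes once, and Rpl37a as listed where either entry was, 38 of 48 had an entry and 25 of the 48 were in all 4 libraries. Of RefSeq protein-coding genes whose symbol does not start with LOC, 77.1% had an entry and 49.4% were in all 4. The 48 neighbours include genes with LOC symbols, none of which had an entry. The sets are therefore unlike, and the neighbours were not tested against that background.

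**Figure D3:**
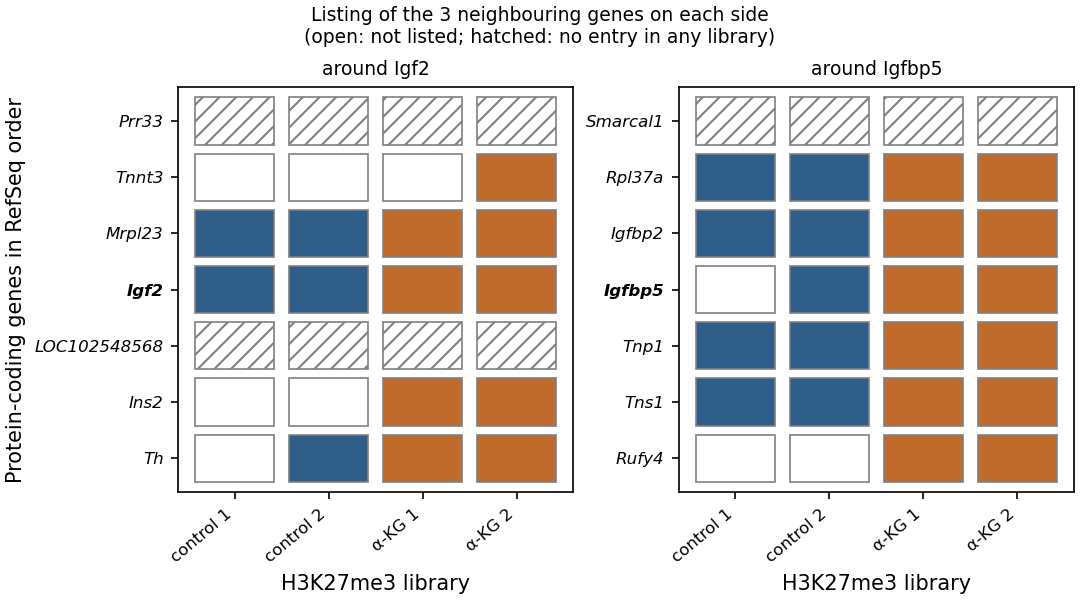
Listing of the 3 protein-coding neighbours on each side of Igf2 and Igfbp5 (bold) in RefSeq order, per H3K27me3 library. Filled is listed, open is not listed, and hatched has no entry in any library. Rpl37a, which has 2 entries, is filled where either was listed. Ins2, near Igf2, is filled in both α-KG libraries alone, and the genes next to Igfbp5, Igfbp2 and Tnp1, are filled in control 1 where Igfbp5 is open, while Rufy4 is open in both controls.

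The lists also name the protein domains of each gene, which the choice of genes did not use. All 6 binding proteins carry the thyroglobulin type-1 domain and the IGFBP domain in these names. Of the 14 other genes with the IGFBP domain, 10 were in all 4 libraries, and the 4 that were not are named here after their values were seen. Nov and Wisp2, matricellular CCN family genes, were absent from control 1 alone, as Igfbp5 was, Esm1 was absent from α-KG 2 alone and Wisp1 was in α-KG 2 alone. Ctgf and Cyr61, also of the CCN family, were in all 4. Of the 11 other genes with the thyroglobulin type-1 domain 9 were in all 4 libraries. Igf1 and Igf2 share the insulin family name with 5 other genes, of which 2, Ins1 and Insl3, were in all 4, and Insl6 and Rln3 were absent from α-KG 1 alone. Igf1r shares its insulin-like receptor domain with Insr and Insrr alone, and all 3 were in all 4 libraries. The domains of Igf2r gave mixed counts: of the 8 other genes with its mannose-6-phosphate receptor binding domain 2 were in all 4 libraries (M6pr and 9330182L06Rik), of the 10 others with its fibronectin type II domain 6, and of the 21 others with its Kringle-like fold 15. The share of all listed genes was 62.8%, and none of these counts was tested against it.

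CpG content of the promoters varied widely among the IGF genes. It was measured as the observed number of CpGs divided by that expected from the C and G content, in a window from 250 bases before to 50 bases after the start. The search was for CG, which reads the same on both strands, and 95.1% of the 21851 windows of protein-coding genes hold at least 1. All 10 IGF genes matched a window by symbol, and Igf2 has 2. The windows of Igf2r and of Igfbp1 to Igfbp6 lie at the outer end of the RefSeq gene. Those of Igf1, Igf2 and Igf1r lie at other annotated starts, so the ratios compare unlike starts. The ratio was highest for Igf1r at 1.11, above 97.9% of all windows, followed by Igfbp3 at 0.94 and Igf2r at 0.87. Igfbp4 had 0.73, Igfbp2 0.65, Igfbp1 0.63 and Igfbp5 0.57, and Igf2 had 0.64 in one window and 0.28 in the other. The ratio was 0.40 for Igf1 and 0.30 for Igfbp6, the latter above 33.8% of all windows. The median over the 11 windows was 0.64, and the median over all windows was 0.52.

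Genes listed in all 4 libraries had a higher median ratio (0.71, 9396 windows) than genes with no listing (0.28, 7209 windows), where renamed genes that found no match also count as not listed. Genes in 1 library had a median of 0.60, those in 2 libraries 0.52 and those in 3 libraries 0.52, so the median did not rise with each further library. Igfbp5 at 0.57 lay inside the middle range of genes in 3 libraries (0.22 to 0.79). It lay equally inside that of genes in 1 library (0.25 to 0.82), in 2 (0.23 to 0.80) and in all 4 (0.40 to 0.89). The share of windows whose gene was in all 4 libraries went from 21.7% at a ratio below 0.2 to 62.1% at 0.8 or more. Igfbp6 and the lower Igf2 window fall in the bin from 0.2 to 0.4, where 30.4% of windows belonged to a gene in all 4 libraries and both of these did. Ins2 had a ratio of 0.05, above 5.3% of windows, and Ins1, in all 4 libraries, 0.22. Igf2bp2, with no entry, had 0.92. These values are across genes, which are not replicates, and a ratio in this window says nothing of where a peak lay.

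**Figure D4:**
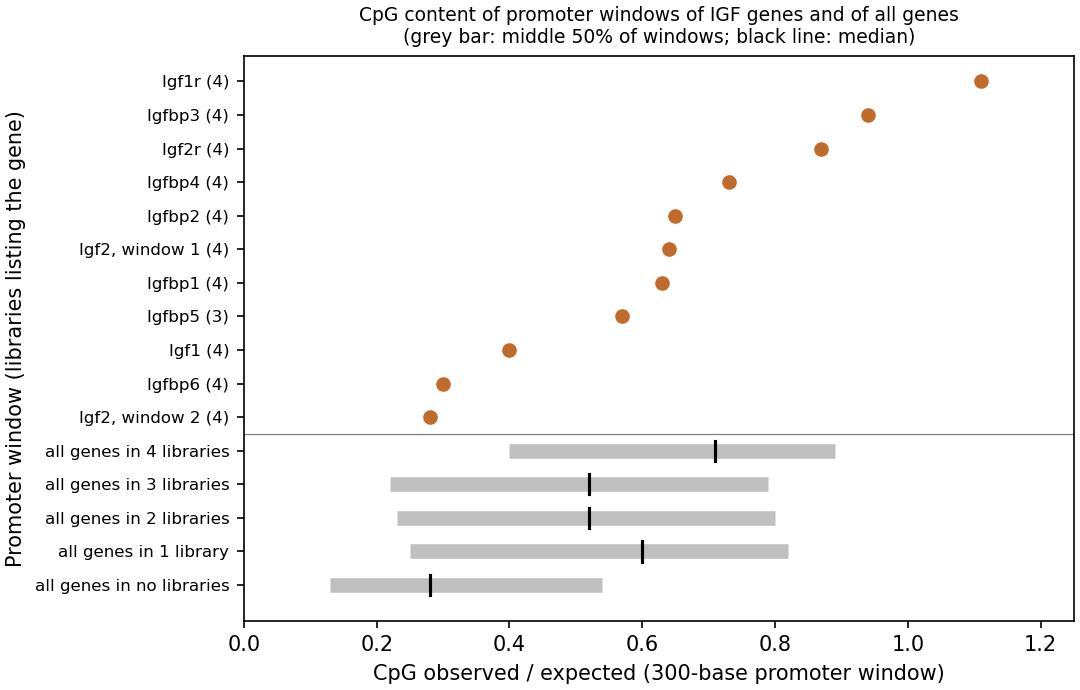
Observed over expected CpG ratio in the 300-base promoter window of each IGF gene (orange points, with the number of libraries that list it) above the middle 50% (grey) and median (black) of windows of all genes by number of libraries. The points run from 0.28 to 1.11, and the medians of all genes from 0.28 with no listing to 0.71 with all 4.

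The culture may hold cells other than cardiomyocytes, and the mark at a marker gene does not show which cells carried it, so the labelled cell type could not be checked here. Of the 9 cardiomyocyte markers with an entry, 4 were in all 4 libraries (Tnnt2, Actn2, Actc1 and Myl2), against 62.8% of all listed genes. Tnni3 was in α-KG 1 alone, Myh7 and Myl7 were in α-KG 2 alone, and Nppa was in control 2 alone. Ryr2, the calcium release channel gene, was in both controls and in no α-KG list. That was the state of 3.22% of all genes in both controls. Myh6 was found in none. Fibroblast markers had 5 of 7 entries in all 4 libraries, endothelial markers 4 of 5, smooth muscle and pericyte markers 2 of 3 and immune markers 2 of 2. These counts leave out markers with no entry, namely Col1a2 (fibroblast), Acta2 (smooth muscle), and Cd68 and Cd3e (immune). The part of other cell types in the listing of any IGF gene was not tested.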

How the data were processed

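The H3K27me3 libraries, 2 from control and 2 from α-KG cells, were compared, with groups and replicate numbers from the labels. The values are gene lists: for each library the authors deposited a text table that gives each gene with a peak by Ensembl ID, symbol and domain names, without any number, header or position. CASAVA, BWA, MACS2 and build rn6 appear in the submitters' processing notes, without roles or versions. The rule that tied a peak to a gene, and any use of the inputs, is not given in the sources used here. Depth is unknown, so no interval that needs it was computed.

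Lists were read with Python 3.11.15, pandas 2.3.3 and numpy 2.4.6, and figures drawn with matplotlib 3.10.9. IGF genes were matched by symbol with case ignored, and other lists also by older RefSeq symbols that no other gene now bears. The code that counts the patterns was run on simulated lists with those patterns put in, which checks the code alone. The IGF genes and all lists were chosen with earlier results of these data known. The naming rule takes all 10 IGF genes, every gene of the insulin, partner and IGF2 mRNA-binding lists, genes of the other pathway lists not in all 4 libraries, and the 3 neighbours on each side of Igf1, Igf2, Igf2r and Igfbp5. A few neighbours covered by it are not reported here. As alternatives, each library was left out in turn, and a replicate block was tried, as were genes with a symbol alone, older symbols, other denominators and a shorter promoter window. A stricter peak score could not be tried, since the lists hold no scores.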

Additional observations from a re-analysis of the deposited data

How the results depend on the processing

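With 2 libraries a group, leaving out 1 moved the difference in listed genes from 208.5 to 1405.5 and that in IGF genes from 0 to 1, and IGF genes in every library used numbered 9 to 10. Gained IGF genes numbered 0 to 1, where the 1 is Igfbp5 without control 2, and lost ones 0 throughout. Of all entries, 64.5% to 67.7% were then in every library used, by construction, since fewer libraries had to share a gene. Genes in every library used made up 77.8% to 88.9% of the partner list, 66.7% to 77.8% of the RAS and ERK list, 62.5% to 75.0% of the growth hormone list and 75.0% to 83.3% of the imprinted neighbours. The replicate block gave the same difference of 807 listed genes (exact sign-flip permutation test, p = 0.5, the smallest it can give) and of 0.5 IGF genes. The labels do not say that a number pairs the libraries, and the deviations of same-numbered libraries correlated at 0.048 across 22427 genes. The 250 bases before the start alone gave a median CpG ratio of 0.54 over the IGF windows, against 0.64. The median over all windows was not computed for this shorter stretch, so the 0.54 has no matching background. With genes that had no entry counted as not listed, 49.4% of 20978 named RefSeq protein-coding genes were in all 4 libraries, and 10 of 13 insulin list genes. Read depth is unknown, so a missing listing cannot be told from a missed peak.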
